A study of Mus musculus with 8 samples.

Results

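*Ret*, *Etv5*, *Lhx1*, *Dusp6* and *Nab2* encode the receptor of glial cell line-derived neurotrophic factor (GDNF), 2 transcription factors known to act downstream of it and 2 feedback regulators of growth factor signalling. They were taken by gene symbol, for these known roles and with earlier results of these data known. They are 5 of the 5736 genes in the expression table analysed. All 5 were measured in all 8 libraries and all 5 passed the filter on low values in each comparison.

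The libraries are bulk RNA-seq of spermatogonia sorted for EGFP from CD1:Uchl1-eGFP mice, in which the *Uchl1* promoter drives EGFP. Every group received bis-(dichloroacetyl)-diamine, which blocks the synthesis of retinoic acid (RA), by mouth at 100 µg per g of body weight for 10 consecutive days from postnatal day 1, a treatment that keeps spermatogonia from differentiating. Aal (n = 2) are undifferentiated spermatogonia, and A1 (n = 3) and A3 (n = 3) are earlier and later type A differentiating spermatogonia. Differentiation was started by RA injected under the skin on day 11, in a volume of 10 µl with 10 µg per µl. The study's timeline places the 3 stages at days 11, 12 and 14, while the sample labels give no age. Testes of several pups of a litter were pooled for each preparation, and no group without the inhibitor was analysed here. The sample labels list the RA injection for all 3 groups, Aal included, while the timeline places Aal on the day of the injection. Aal is read here as cells before RA, which the labels do not state. In the step from Aal to A1, differentiation, the injection and age cannot be told apart.

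GDNF is secreted by somatic cells of the testis and maintains the undifferentiated spermatogonia, among them the stem cells. It binds a GFRA co-receptor, which recruits the receptor tyrosine kinase RET. RET then signals through RAS to the kinases MEK and ERK and through PI3K to AKT. ERK signalling induces immediate early genes such as the EGR transcription factors and also induces its own inhibitors, so that the mRNAs of feedback regulators follow pathway activity in many cell types.

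Transcript levels are given as FPKM, fragments per kilobase of gene scaled to the size of the library, as deposited. FPKM is a level per length, so values of different genes may be set side by side. Fold changes are differences of mean log2(FPKM + 1) tested with limma, a scale that understates the change of a gene at low FPKM such as *Lhx1*. A gene was called when its adjusted p did not exceed 0.01 and its log2 fold change lay beyond 1 in either direction. All 5 genes were lower in A1 than in Aal, and none was called between A1 and A3. In A1 the mean levels had come down to between 16.8% and 29.1% of the Aal means, and in A3 they stood between 16% and 34.6%. The fall of all 5 genes was thus measured over the first step, and the test of the difference between the steps was passed by all 5.

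Promoter sequences are shown for 4 of the genes, because response elements for EGR, ETS and CREB family factors are the letters through which growth factor signalling is known to reach many genes of this kind. Each is the 250 bases before a transcript start in RefSeq (GRCm38.p6 table), located by an exact match in the mm9 genome that the files use. Capitals mark the EGR, ETS and CREB motif letters named after the sequences, while CCAAT, also named there, is not marked. No entry was found for *Ret*.

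*Dusp6*, chr10:98725615-98725864, + strand: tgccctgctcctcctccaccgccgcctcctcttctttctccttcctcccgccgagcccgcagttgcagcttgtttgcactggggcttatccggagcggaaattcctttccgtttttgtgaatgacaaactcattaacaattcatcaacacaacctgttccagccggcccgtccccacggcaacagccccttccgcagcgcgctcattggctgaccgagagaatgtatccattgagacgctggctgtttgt

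*Nab2*, chr10:127103760-127104009, − strand: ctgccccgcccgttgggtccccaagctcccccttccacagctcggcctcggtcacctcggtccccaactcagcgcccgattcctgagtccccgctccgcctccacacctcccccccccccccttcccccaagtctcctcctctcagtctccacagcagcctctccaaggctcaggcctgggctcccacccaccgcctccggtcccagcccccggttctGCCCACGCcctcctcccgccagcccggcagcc

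*Lhx1*, chr11:84339037-84339286, − strand: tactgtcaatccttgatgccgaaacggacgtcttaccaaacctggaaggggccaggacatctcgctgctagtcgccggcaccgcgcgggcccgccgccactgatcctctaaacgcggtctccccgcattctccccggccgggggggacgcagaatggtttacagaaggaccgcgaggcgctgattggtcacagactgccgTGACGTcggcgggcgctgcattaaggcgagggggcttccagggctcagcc

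*Etv5*, chr16:22438442-22438691, − strand: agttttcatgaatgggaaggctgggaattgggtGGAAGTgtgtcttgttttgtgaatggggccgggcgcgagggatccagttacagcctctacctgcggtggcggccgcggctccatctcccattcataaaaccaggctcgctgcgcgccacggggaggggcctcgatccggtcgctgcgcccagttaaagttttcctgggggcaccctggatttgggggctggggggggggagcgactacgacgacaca

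The *Nab2* window holds the EGR letters GCGTGGGC on its other strand, where they read GCCCACGC, 25 bases before the start. This window lies wholly inside the annotated *Nab2* gene, since an annotated transcript starts further upstream, and 7 of its bases are in exons. These letters occur in 1.37% of the 32851 promoters of the same length, searched on both strands. NAB2 is a corepressor of EGR factors and a known EGR target. The *Lhx1* window holds TGACGT, the core of the cAMP response element, 45 bases before the start, as 6.47% of all promoters do. The *Etv5* window, which lies inside the gene but in no exon and precedes the second of 2 listed starts, holds the ETS letters GGAAGT 212 bases before the start, as 19.7% of all promoters do. The *Dusp6* window holds none of these 3. It holds CCAAT 42 bases before the start, read on the other strand, and so do the *Lhx1* and *Etv5* windows at 64 and 220 bases, a box found in 33.8% of all promoters. CCAAT also occurs 3 times before the other *Etv5* start, which is not printed and whose window holds none of the EGR, ETS and cAMP letters. The half-site letters of RA receptors, AGGTCA, occur in 14% of all promoters and in none of the 5 promoters listed for these genes. A match of letters is a description and shows no binding.

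*Ret*, the signalling receptor, lies on the − strand of chromosome 6 at 118101766 to 118147762 (mm9, GENCODE M1) and overlaps no other annotated gene. Its level was 78.7 and 86.5 FPKM in the 2 Aal libraries, 30.1, 18.0 and 16.5 in A1, and 23.5, 17.6 and 17.5 in A3. The Aal libraries stood far above all 6 others, and A1 and A3 overlapped. The Aal mean was 82.6 ± 5.51 (SD, n = 2). That of A1, 21.5 ± 7.48 (SD, n = 3), was 3.83-fold lower, and that of A3, 19.5 ± 3.42 (SD, n = 3), was 4.23-fold lower. By limma the log2 change from Aal to A1 was −1.94 (95% interval −2.48 to −1.40, SE 0.23, adjusted p = 0.000654). *Ret* thus went from rank 227 of 5736 genes by mean level in Aal to rank 1360 in A1.

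*Etv5*, an ETS family transcription factor needed for the upkeep of spermatogonial stem cells, lies on the − strand of chromosome 16 at 22381382 to 22439792. It was at 39.6 and 50 FPKM in Aal, 17.1, 11.4 and 9.96 in A1, and 14.8, 14.2 and 14 in A3. No A1 or A3 library reached an Aal library, and the A3 values lay inside the range of A1. Its mean fell from 44.8 ± 7.35 (SD, n = 2) to 12.8 ± 3.77 (SD, n = 3) in A1 and was 14.4 ± 0.427 (SD, n = 3) in A3. The log2 change from Aal to A1 was −1.75 (95% interval −2.25 to −1.26, SE 0.21, adjusted p = 0.0007, limma).

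*Lhx1*, a LIM homeobox factor that GDNF induces in cultured spermatogonia, lies on the − strand of chromosome 11 at 84331479 to 84338923. It was the least abundant of the 5, at 6.76 and 5.98 FPKM in Aal, 1.38, 0.772 and 1.05 in A1, and 0.806, 1.12 and 1.12 in A3. The values of A1 and A3 were again far below those of Aal and overlapped each other. They rest on 42 to 449 reads per library, for which counting alone gives an error of 4.72% to 15.4%. The ratio of means from Aal to A1, 5.96, was the highest of the 5, while its log2 change of −1.84 (95% interval −2.22 to −1.46, SE 0.16, adjusted p = 0.000287, limma) ranked below that of *Ret*. The pseudocount of 1 moved this value, which was −2.50 with a pseudocount of 0.1.

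*Dusp6* encodes a cytoplasmic phosphatase that dephosphorylates ERK and is itself induced by ERK signalling. It lies on the + strand of chromosome 10 at 98725865 to 98730122. It was at 34.5 and 36.5 FPKM in Aal, 13.2, 7.91 and 9.88 in A1, and 13.1, 11.7 and 12 in A3. No A1 or A3 library came above 37.1% of the Aal mean, and all 3 A3 values lay inside the A1 range. Its mean fell from 35.5 ± 1.36 (SD, n = 2) to 10.3 ± 2.66 (SD, n = 3) and was 12.3 ± 0.75 (SD, n = 3) in A3. The log2 change from Aal to A1 was −1.71 (95% interval −2.14 to −1.29, SE 0.18, adjusted p = 0.000429, limma), the smallest fall of the 5.

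*Nab2* was the most abundant of the 5 in Aal. It lies on the − strand of chromosome 10 at 127097974 to 127105624, where the annotation places *Stat6*, *Gm16229* and *Tmem194* on the other strand. Whether the authors' counting used strand is not given in the sources used here, so the part of these neighbours in its values is uncertain. Its level was 102.1 and 101.9 FPKM in Aal, 26.3, 29.4 and 30.2 in A1, and 25.4, 23.4 and 23.6 in A3. Here the 3 groups did not overlap at all, with every A3 library below every A1 library. How many of all genes separate A3 from A1 in this way was not counted. The mean fell from 102.0 ± 0.163 (SD, n = 2) to 28.7 ± 2.04 (SD, n = 3) and stood at 24.1 ± 1.1 (SD, n = 3) in A3. The log2 change from Aal to A1 was −1.80 (95% interval −1.97 to −1.63, SE 0.07, adjusted p = 6.03e-05, limma).

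**Figure D1:**
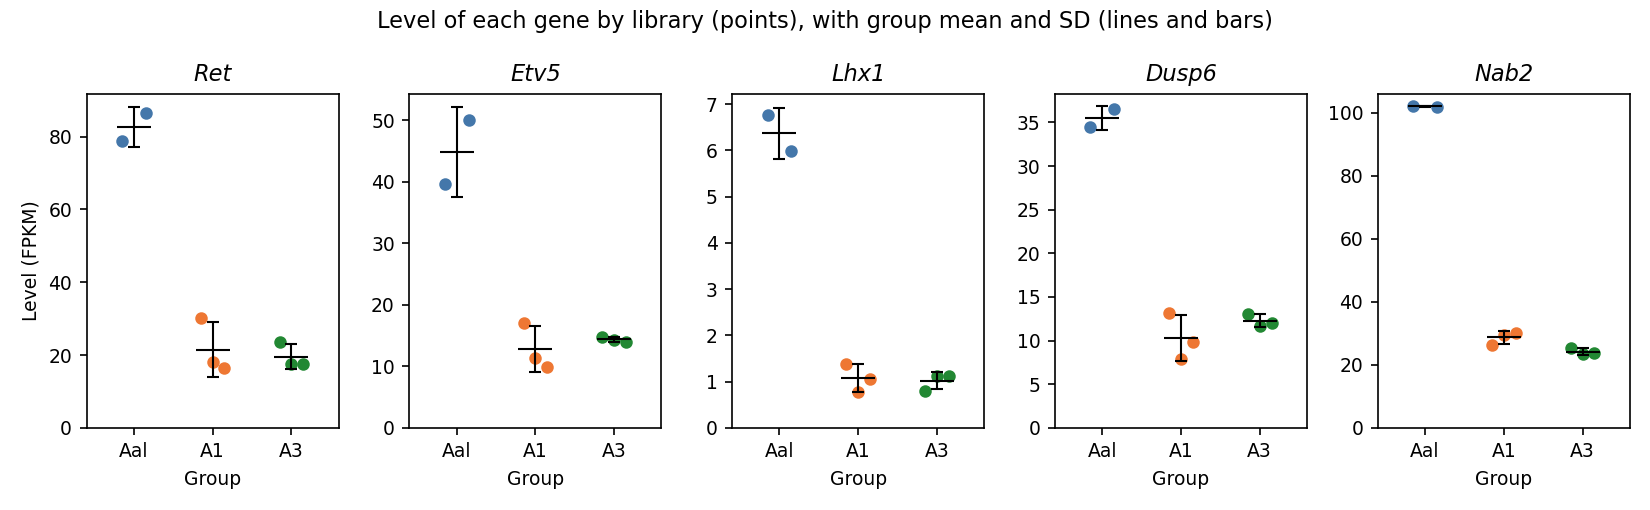
Level (FPKM, linear axes from 0) of *Ret*, *Etv5*, *Lhx1*, *Dusp6* and *Nab2* in each Aal, A1 and A3 library, with a point for each library and a line and bars for the group mean and SD (n = 2, 3 and 3). Both Aal points lie above all 6 others in every panel, and A1 and A3 separate only for *Nab2*.

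The counts above may be read against all genes, as a description, since the 5 genes were chosen with earlier results of these data known. Of the 4632 genes tested between A1 and Aal, 4.97% were called lower and 4.19% higher, against 5 of 5 of these genes lower and 0 higher. Every A1 library lay below every Aal library for 5 of 5, and for 29.4% of all genes tested, so that the lack of overlap alone is common. By size of fall *Ret* was 23rd, *Lhx1* 29th, *Nab2* 33rd, *Etv5* 41st and *Dusp6* 44th of the 4632. In bulk samples fewer cells of a type and less RNA per cell cannot be told apart, and this holds for each level given here.

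The calls from Aal to A1 rest on 2 Aal libraries. Without Aal replicate 2 the log2 changes were −1.87 for *Ret*, −1.59 for *Etv5* and −1.68 for *Dusp6*, with adjusted p of 0.0175, 0.0179 and 0.0119, so that these 3 calls were lost while *Lhx1* and *Nab2* kept theirs. Without Aal replicate 1 only the call of *Ret* was lost, with a log2 change of −2.01 (adjusted p = 0.0116, limma). In both fits the lone Aal library is assumed to vary as the A1 libraries do.

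Between A1 and A3 no member was called by limma, and none was called by voom on the recovered reads. All 5 intervals lay between −0.61 and 0.63 on the log2 scale, inside the fold threshold of 1 in both directions. *Ret* changed by −0.10 (95% interval −0.61 to 0.41, adjusted p = 0.804), *Lhx1* by −0.03 (−0.37 to 0.31, adjusted p = 0.916), *Etv5* by 0.19 (−0.21 to 0.58, adjusted p = 0.509) and *Dusp6* by 0.25 (−0.12 to 0.63, adjusted p = 0.324). *Nab2* was the only one of the 5 with an unadjusted p under 0.05. Its change was −0.24 (95% interval −0.40 to −0.07), with an unadjusted p = 0.0114 and an adjusted p = 0.0554 from limma. All 3 A3 libraries were lower than any A1 library, a separation that was not counted over all genes. Of the 4590 genes tested in this comparison 1.02% were called lower and 0.479% higher. Few genes of the table were called at this step, so 0 of 5 is close to the background.

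The direction of 2 of these small differences turned with single libraries. Without A1 replicate 1 the change of *Ret* was 0.16 and that of *Lhx1* 0.076, and without A3 replicate 1 that of *Lhx1* was 0.05, none of them called. Without A1 replicate 1 the change of *Etv5* rose from 0.19 to 0.40 (adjusted p = 0.0354) and that of *Dusp6* from 0.25 to 0.43 (adjusted p = 0.0559), again with no call.

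Over both steps, from Aal to A3, all 5 genes were called lower. The log2 change was −2.04 for *Ret* (95% interval −2.33 to −1.74, adjusted p = 1.48e-05) and also −2.04 for *Nab2* (−2.20 to −1.88, adjusted p = 3.13e-06). It was −1.87 for *Lhx1* (−2.20 to −1.55, adjusted p = 2.98e-05), −1.57 for *Etv5* (−1.81 to −1.32, adjusted p = 2.06e-05) and −1.46 for *Dusp6* (−1.66 to −1.26, adjusted p = 1.36e-05). In this comparison 9.69% of all genes tested were called lower and 7.87% higher, and in 34.2% every A3 library lay below every Aal library. *Nab2* and *Ret* ranked 27th and 28th by size of fall, *Lhx1* 47th, *Etv5* 136th and *Dusp6* 173rd of the 4687 genes tested. This comparison shares its Aal libraries with that of A1 against Aal and is not independent of it.

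The difference between the steps was tested in a fit on all 8 libraries, as the change from A1 to A3 minus the change from Aal to A1. It was 1.84 for *Ret* (adjusted p = 0.00707), 1.94 for *Etv5* (0.00243), 1.81 for *Lhx1* (0.00163), 1.97 for *Dusp6* (0.00148) and 1.56 for *Nab2* (0.00016, all by limma). All 5 passed the threshold of 0.05 and all were positive, the mark of a fall that was larger in the first step. Of the 4789 genes tested, 10.8% passed with a positive difference.

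**Figure D2:**
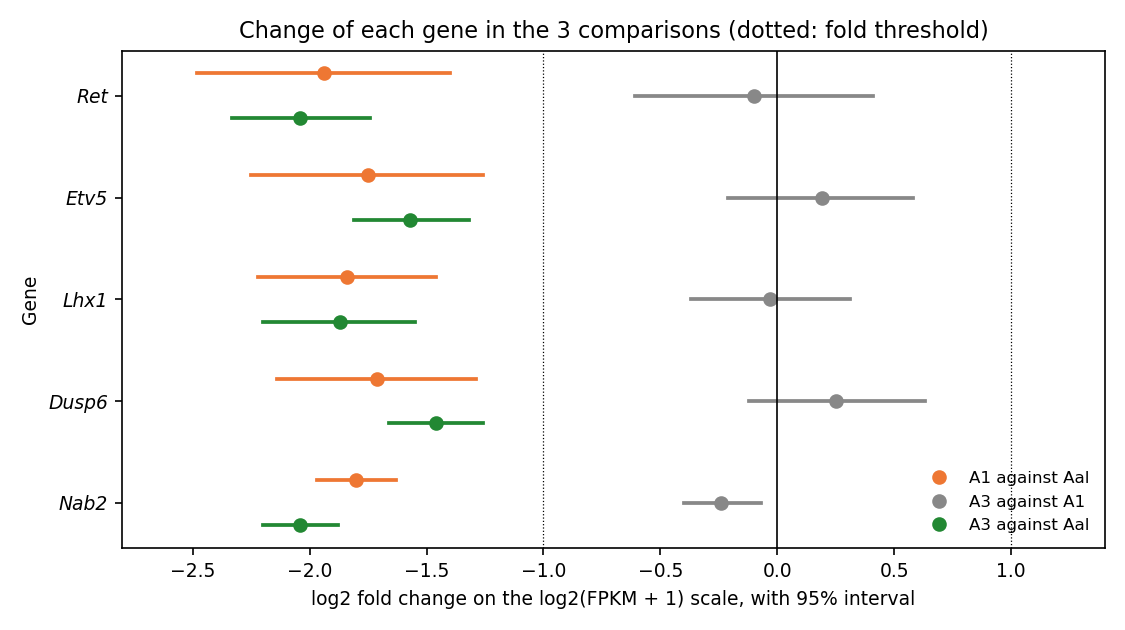
log2 fold change of the 5 genes on the log2(FPKM + 1) scale, with 95% intervals from limma, for A1 against Aal (orange), A3 against A1 (grey) and A3 against Aal (green); the dotted lines mark the fold threshold of 1. The orange and green intervals all lie below −1, and the grey ones lie between −0.61 and 0.63.

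Some of the 5 genes changed in proportion to each other after the fall, and others did not. *Dusp6* and *Etv5* moved in parallel, with a ratio of FPKM of 0.87 and 0.73 in Aal, 0.77, 0.69 and 0.99 in A1 and 0.88, 0.82 and 0.85 in A3, 3 groups that overlap. *Dusp6* relative to *Nab2* was 0.34 and 0.36 in Aal, 0.50, 0.27 and 0.33 in A1 and 0.52, 0.50 and 0.51 in A3. The A3 libraries are alike and all above Aal, while A1 spans both. *Etv5* relative to *Ret* was 0.50 and 0.58 in Aal, 0.57, 0.63 and 0.60 in A1 and 0.63, 0.81 and 0.80 in A3. Within A3, *Etv5* and *Dusp6* thus kept 32.1% and 34.6% of their Aal means, *Ret* and *Nab2* 23.7% each and *Lhx1* 16%. These ratios are descriptions and were not tested.

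The 3 A1 libraries were not alike. A1 replicate 1 was the highest of the 3 for *Ret*, *Etv5*, *Lhx1* and *Dusp6*, at 36.5%, 38.1%, 21.6% and 37.1% of the Aal mean, and the lowest of the 3 for *Nab2*, at 25.8%. Of 6 further markers of undifferentiated spermatogonia in the table (*Id4*, *Nanos2*, *Nanos3*, *Upp1*, *Neurog3* and *Pax7*), 5 were also highest in A1 replicate 1, *Neurog3* being the exception. How many of all genes were highest in this library was not counted. The summed level of these 6 markers was 229.6 and 258.3 FPKM in Aal, 71.2, 51.9 and 48.7 in A1, and 43.1, 43.4 and 42.4 in A3. In Aal most of it came from *Nanos3* (91.4 and 111.7) and *Upp1* (70.4 and 83.2). The list sum therefore moved with *Ret*, *Etv5*, *Lhx1* and *Dusp6* in that library but not with *Nab2*. The part of the list in the levels of the 5 genes was not tested. Without A1 replicate 1 the log2 changes from Aal to A1 were −2.19 for *Ret*, −1.96 for *Etv5*, −1.95 for *Lhx1*, −1.89 for *Dusp6* and −1.74 for *Nab2*, and all 5 were called.

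**Figure D3:**
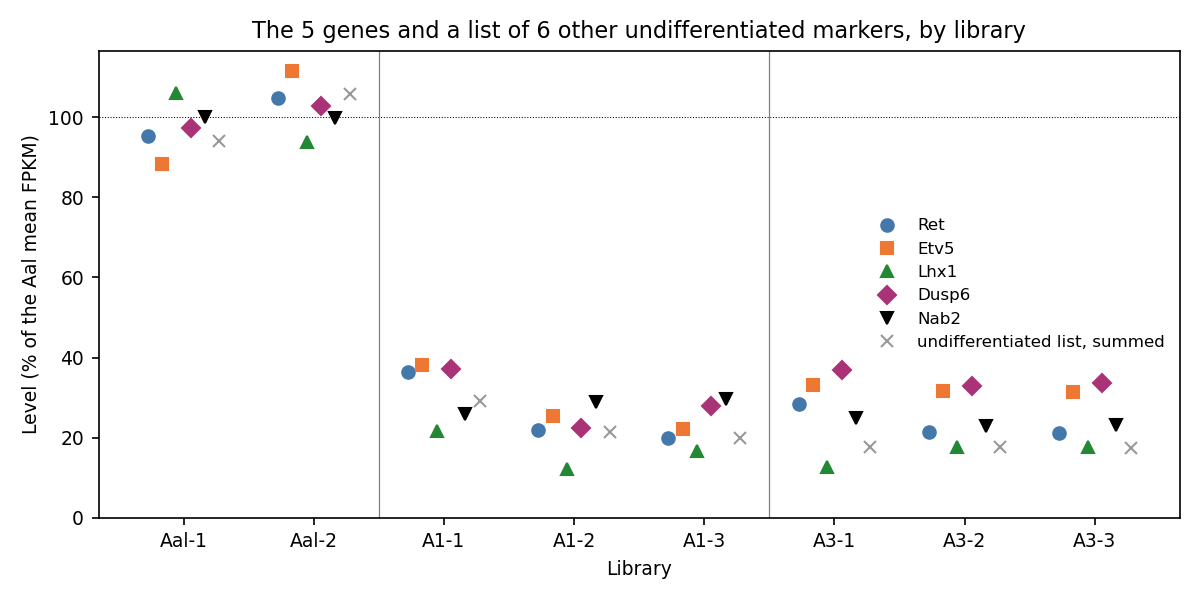
Level in each of the 8 libraries as a percent of the Aal mean FPKM, for the 5 genes and for the summed level of 6 other markers of undifferentiated spermatogonia (crosses). A1-1 lies above A1-2 and A1-3 for every series but *Nab2*, and in A3 the sum (17.4% to 17.8%) lies below all of *Ret*, *Etv5*, *Dusp6* and *Nab2*.

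Markers of Sertoli cells, the somatic nurse cells and a source of GDNF in the testis, also differed between libraries. The summed level of the 12 Sertoli markers in the table was 60.1 and 42.7 FPKM in Aal, 68.0, 69.7 and 474.4 in A1, and 454.1, 343.6 and 245.7 in A3. A1 replicate 3 and all 3 A3 libraries were thus well above the rest, and 9 of the 11 markers tested between A3 and Aal were called higher. Among them were *Fshr*, *Amhr2* and *Clu*. *Trf*, the transferrin gene, went the other way and was called lower in A3 against Aal (−1.62, adjusted p = 3.57e-05, limma). It was also the only one of 9 Sertoli markers called in A1 against Aal (−2.17, adjusted p = 0.000433, limma). *Etv5* is also known to be expressed in Sertoli cells. A1 replicate 3 had the highest Sertoli sum and the lowest *Etv5* level of all libraries, and the part of Sertoli cells in the levels of the 5 genes was not tested. Without A1 replicate 3 the falls from Aal to A1 were −1.78 for *Ret*, −1.60 for *Etv5*, −1.84 for *Lhx1*, −1.70 for *Dusp6* and −1.84 for *Nab2*, all called.

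The other lists were smaller in level. Sums ranged from 0.838 to 6.86 FPKM for 2 Leydig cell markers, from 1.56 to 6.53 for 3 markers of peritubular myoid cells and from 0.285 to 9.13 for 2 macrophage markers, each highest in A1 replicate 3. The 4 endothelial markers summed to 16.1 and 18.8 in Aal, 8.05, 7.22 and 13.1 in A1 and 3.87 to 4.29 in A3. No value in the table was 0. The 6 markers of differentiating spermatogonia summed to 132.9 and 123.6 in Aal, 221.8 to 231.3 in A1 and 260.0 to 289.9 in A3. The sums were lowest in the group where the 5 genes were highest. From Aal to A3, 3 of these 6 markers were called higher, 2 were not called and 1, *Ccnd2*, was called lower. *Uchl1*, whose promoter drove the sorting signal, was at 4493.2 and 5227.0 FPKM in Aal. It lay between 4047.7 and 7269.9 in A1 and between 5280.1 and 5912.2 in A3. A1 overlapped Aal and A3, while every A3 library lay above every Aal library. *Uchl1* was not called from Aal to A3 (log2 change 0.20, adjusted p = 0.324, limma). Library totals ran from 18276164 to 27316451 reads, and the genes of the table held 34.0% to 34.4% of them. Reads behind the values ran from 2210 to 15937 for *Ret*, 696 to 4798 for *Etv5*, 505 to 2560 for *Dusp6* and 1239 to 6588 for *Nab2*.

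The rest of the pathway was counted from 4 lists of 172 genes, of which the table held 51 besides the 5. Of the 44 tested between A1 and Aal, 6 were called lower, 1 was called higher and 37 were not called. The co-receptor *Gfra1* and the further GDNF or ERK targets *Bcl6b*, *Pou3f1*, *Egr1*, *Nab1*, *Dusp4*, *Spry2* and *Spry4* were not analysed here.

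The 6 lower genes all came from the list of factors that respond to GDNF, of which 10 were tested besides *Etv5* and *Lhx1*. The median log2 change of these 10 was −1.20, beside 0.03 over all genes tested. *Id4*, an inhibitor of helix-loop-helix factors that marks stem cells, was at 32.2 and 24.7 FPKM in Aal, 9.67, 6.11 and 4.42 in A1 and 9.57, 6.31 and 7.13 in A3. Like *Ret*, it lost most of its level by A1 and overlapped between A1 and A3, with a log2 change to A1 of −1.98 (adjusted p = 0.00116, limma), in a region where another annotated gene, *A330033J07Rik*, overlaps it. *T* (brachyury) changed by −2.28, the tetraspanin *Tspan8* by −1.99, the RNA-binding protein gene *Nanos2* by −1.70, the early response factor *Egr3* by −1.36 and *Etv4*, the closest relative of *Etv5* on the list, by −1.03. *Etv4* was at 23.2 and 22.2 FPKM in Aal, 11.9, 9.92 and 10.1 in A1 and 12.5, 11.4 and 12.9 in A3. It kept 46.8% of its Aal mean in A1, where *Etv5* kept 28.6%.

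The other genes called on that list, in later comparisons, moved in both directions. *Id2*, a relative of *Id4*, was at 1.4 and 0.845 FPKM in Aal, 2.61, 3.60 and 7.79 in A1 and 11.5, 18.0 and 17.1 in A3, groups without overlap. It was called higher only in A3 against Aal, with a log2 change of 2.95 (adjusted p = 2.38e-05, limma). The cyclin gene *Ccnd1* was called higher between A1 and A3, by 1.03 (adjusted p = 0.00123, limma), the single call among the 44 other pathway genes tested at that step. *Ccnd2*, another cyclin, was called lower from Aal to A3, with a log2 change of −1.12 (adjusted p = 1.92e-05, limma). Of the 10, 6 were called lower and 2 higher from Aal to A3.

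Among the feedback inhibitors and early response genes, *Dusp6* and *Nab2* were the only ones called lower from Aal to A1 of 9 tested. The median change of the other 7 was −0.09. Of these 7, 4 had an unadjusted p under 0.05 by limma, and voom on the recovered reads called 1. The shares of all genes at that p and by voom are not given here. *Dusp9*, which encodes another cytoplasmic phosphatase of ERK, moved the other way. It was at 14.7 and 16.1 FPKM in Aal, 44.4, 53.9 and 49.5 in A1 and 48.5, 55.8 and 59.2 in A3. All 6 libraries of A1 and A3 lay above both Aal libraries, and the log2 change to A1 was 1.61 (95% interval 1.39 to 1.84, adjusted p = 0.000127, limma). *Dusp6* was thus the more abundant of the 2 phosphatase mRNAs in both Aal libraries and *Dusp9* in all 6 others. *Arc*, an early response gene in neurons, was called higher from Aal to A3 by 1.39 (adjusted p = 0.000412, limma).

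Of the list of receptors and ligands only *Ret* was called from Aal to A1, and the 6 others tested had a median change of −0.11. They moved in both directions, and 3 of the 6 were lower. *Fgfr4* changed by 0.98 (adjusted p = 0.00179) and *Insr* by −0.77 (adjusted p = 0.0056, both by limma), short of the fold threshold. Of these 6, 3 had an unadjusted p under 0.05, and voom on the recovered reads called 2, again with no share over all genes given here. *Gfra2*, a co-receptor of the same family as GFRA1, was near the limit of the filter, between 0.372 and 1.63 FPKM in all 8 libraries, and changed by −0.28 from Aal to A1 (adjusted p = 0.264, limma). *Gdnf* itself was at 0.102 and 0.0818 FPKM in Aal, 0.452, 0.459 and 1.03 in A1 and 0.596, 0.478 and 0.570 in A3. It stayed under the filter and was not tested. The insulin receptor gene *Insr* was called lower from Aal to A3 by a log2 change of −1.21 (adjusted p = 0.000322, limma).

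None of the 21 genes of the signalling cascade that were tested was called from Aal to A1 by limma, and none of the 22 from A1 to A3. At an unadjusted p under 0.05 there were 9 of 21 and 9 of 22, and voom on the recovered reads called 1 at each step. Without the matching shares of all genes, which are not given here, these counts describe the list only. The MEK1 gene *Map2k1* changed by 0.20 from Aal to A1 (95% interval 0.06 to 0.35, adjusted p = 0.0304). From Aal to A3 the kinase gene *Fyn* (−1.05) and the PI3K subunit genes *Pik3ca* (−1.13) and *Pik3cd* (−1.76) were called lower and the adaptor gene *Shc4* (1.12) higher, of 22 tested. *Pik3cd* was at 30.5 and 30.7 FPKM in Aal, 15.4, 16 and 13.9 in A1 and 10.1, 7.00 and 8.28 in A3, 3 groups without overlap. Its difference between the steps was 0.19 (adjusted p = 0.564, limma), while that of *Ret*, *Etv5*, *Lhx1*, *Dusp6* and *Nab2* passed the test. No direct test set these genes against each other.

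**Figure D4:**
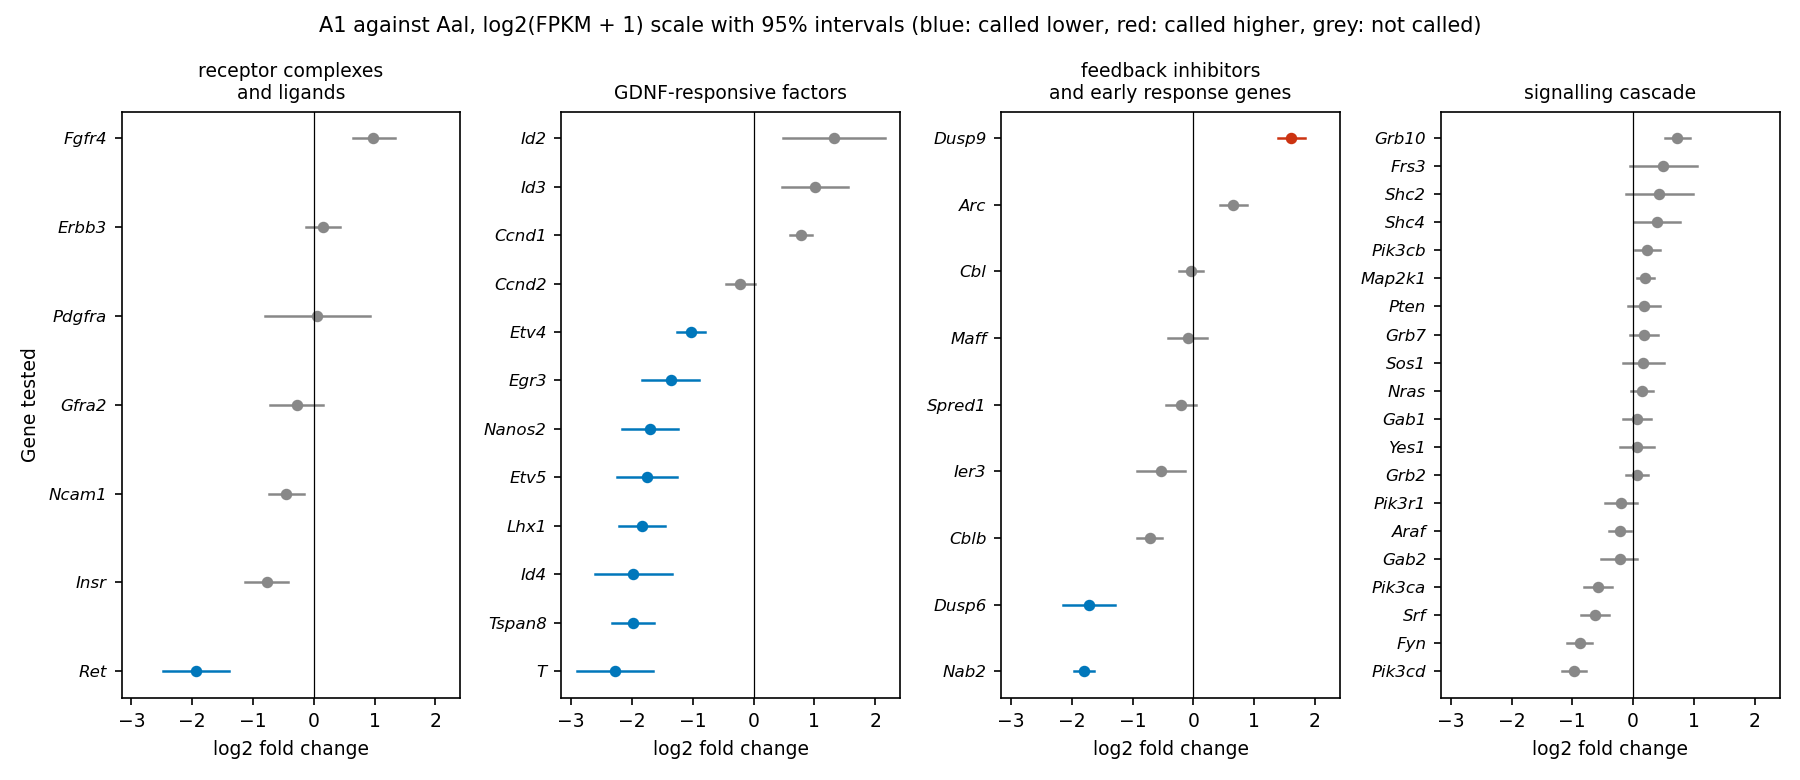
log2 fold change from Aal to A1 (log2(FPKM + 1) scale, with 95% intervals) of tested genes from the 4 pathway lists, blue for called lower, red for called higher and grey for not called. In the panel of GDNF-responsive factors 8 of 12 are called lower, *Etv5* and *Lhx1* included, and in that of the signalling cascade none of those shown is called.

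The genes with the most similar profile were found for each member as the 3 highest Pearson correlations of log2(FPKM + 1) over the 8 libraries. These values are descriptions over libraries that form 3 groups, and many genes that differ between Aal and the rest reach a high r. For *Ret* they were *Osbpl3* (r = 0.9936), *Fbxo41* (0.9928) and *Npepl1* (0.9918). *Osbpl3*, an oxysterol-binding protein gene, was at 13.6 and 15.5 FPKM in Aal, 4.82, 2.56 and 2.43 in A1 and 3.70, 2.70 and 3.38 in A3, with the same high A1 replicate 1 as *Ret*. For *Dusp6* they were *Tnrc6c* (0.9919), *Pnpla7* (0.9905) and *Brwd3* (0.9899), and for *Etv5* *Rps10* (0.9941), *Rnf25* (0.9918) and again *Tnrc6c* (0.9913). For *Lhx1* they were *Rps7* (0.9902), *Fgd5* (0.9895) and *Kdm4a* (0.9895), and for *Nab2* *Chmp1b* (0.9972), *Inpp5f* (0.9969) and *Tmtc4* (0.9952). A high r does not mean a like size of change. The ribosomal protein gene *Rps10* changed by −0.60 from Aal to A1, beside −1.75 for *Etv5*, and *Tnrc6c*, which acts in microRNA silencing, also by −0.60.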

How the data were processed

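The authors sorted EGFP+ germ cells, prepared RNA from 2 or 3 independent cell preparations per stage and made stranded mRNA libraries. Per the submitters' processing notes, cutadapt 1.9, STAR 2.5.2b and featureCounts were used on the mm9 genome. The deposited table holds FPKM values. Which annotation was used, whether counting was stranded and how FPKM was derived are not given in the sources used here. The authors tested counts with DESeq2, which takes no FPKM.

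Here log2(FPKM + 1) was tested with limma 3.58.1 in R 4.3.3 (lmFit, eBayes with a trend, two-sided) on the libraries of each pair of groups. Genes with at least 1 FPKM in at least 2 of these libraries were tested, with Benjamini-Hochberg adjustment over all of them. The scripts were tested on simulated data. FPKM values were whole multiples of 1 read, and 100.0% were rebuilt from whole reads within a relative tolerance of 0.0001. These reads gave library totals, counting errors and a voom alternative. Counting errors cover sampling of reads only.

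The 5 genes, the lists and the tests were chosen with earlier results of these data known. Named were the 5 genes, the sort gene, list genes called in a comparison (at most 6 per list and comparison), a few preset pathway genes and the 3 most similar profiles per gene among genes with a mean of at least 5 FPKM. *Gfra2*, *Gdnf*, *Fgfr4* and *Map2k1*, and the *Dusp9* comparison with *Dusp6*, were added after their values were seen. Alternatives were other pseudocounts, filters, scalings, thresholds and fits, the replicate block and leaving out each library. The values of 1 gene of the signalling cascade are not reported here.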

Additional observations from a re-analysis of the deposited data

How the results depend on the processing

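Each of the 5 genes kept its direction and call from Aal to A3, and its positive difference between the steps, in all fits tried. From Aal to A1 the direction held in all fits, and calls were lost only when an Aal library was left out. Leaving out 1 library at a time, the log2 change ranged from −2.19 to −1.78 for *Ret*, from −1.96 to −1.59 for *Etv5* and from −1.89 to −1.55 for *Dusp6*, and 2 to 5 genes were called. The lost calls were those of *Ret* without Aal replicate 1 (−2.01) or replicate 2 (−1.87), and of *Etv5* (−1.59) and *Dusp6* (−1.68) without Aal replicate 2, fits with only 1 Aal library. From A1 to A3 none was called in any fit. There the change ranged from −0.26 to 0.16 for *Ret* and from −0.14 to 0.076 for *Lhx1* over the fits without 1 library, turning positive without A1 replicate 1 (0.16 and 0.076) and, for *Lhx1*, without A3 replicate 1 (0.05). With the replicate block, 5, 0 and 5 genes were called in the 3 comparisons, and no call of the 5 changed. Same-numbered A1 and A3 libraries did not deviate together (correlations of −0.107, 0.022 and −0.323 over 4789 genes). These correlations cannot show whether same-numbered libraries share a litter or a sort, and Aal was not compared in this way. The count of other pathway genes depended more on the settings. From Aal to A1 it was 6 lower (2 to 12 over 16 alternatives) and 1 higher (1 to 5), from A1 to A3 0 lower (0 to 3) and 1 higher (0 to 3), and from Aal to A3 10 lower (8 to 18) and 5 higher (4 to 7). Depth limits *Lhx1* most, with as few as 42 reads in a library.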
